A study of Mus musculus with 10 samples.

Results

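Aox3, Ugt2b1, Sult2a8, Ces1e and Ces1f are mouse liver enzymes that oxidise, conjugate or hydrolyse drugs, steroids, bile acids and lipids. Their expression was followed across all 10 arrays of a mouse liver series. All probe sets that the platform's annotation gives exactly 1 of these symbols were taken, which left 6 probe sets of 5 genes among 12411 probe sets and 7542 genes. Ces1f had 2 probe sets and each other gene had 1. The genes were proposed with results of these arrays in view, mainly the lower levels of Aox3, Ugt2b1 and Sult2a8 in TgSREBP-1a livers, so that contrast is given as a description only. Which values led to the choice of Ces1e and Ces1f is not recorded, so the tests on them are not independent evidence either.

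The TgSREBP-1a and TgSREBP-2 groups were male mice aged 12 to 16 weeks that made the transcriptionally active, nuclear part of human SREBP-1a or human SREBP-2 from a transgene. Their wild type littermates, also male, were of the same age, and for 2 weeks all 3 groups were on a high protein/low carbohydrate diet, chosen to raise transgene expression. The Scap-/- group were male mice aged 10 to 12 weeks, carrying MX1-Cre, and their wild type mice had the same sex and age. Both groups of the Scap study ate Teklad chow, had 4 intraperitoneal injections of polyinosinic-polycytidylic acid to switch on Cre, and gave their livers 14 days after the last injection. SREBPs are transcription factors that switch on sterol and fatty acid synthesis genes, and SCAP carries their precursors to the Golgi for activation. The sources used here do not give the promoter of the transgenes, and Mx1-Cre, which interferon switches on, is also active in blood cells and other tissues. Each group was 1 pool (20 µg) of RNA from 5 livers, hybridised to 2 arrays. All p-values therefore set pools against hybridisation error, and the spread between mice was not measured.

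The liver clears foreign and endogenous compounds by first exposing or adding a reactive group and then attaching a polar one. Aldehyde oxidases such as Aox3 are molybdenum-containing flavoenzymes that oxidise aldehydes and nitrogen heterocycles. UDP-glucuronosyltransferases such as Ugt2b1 attach glucuronic acid in the endoplasmic reticulum, and cytosolic sulfotransferases of the SULT2A group, to which Sult2a8 belongs, attach sulfate to steroids and bile acids. Carboxylesterases hydrolyse ester drugs and neutral lipids in the endoplasmic reticulum. Ces1e, known as egasyn, holds beta-glucuronidase there, and Ces1f, also called triacylglycerol hydrolase 2, acts on lipid esters. In the RefSeq gene table of assembly GRCm38.p6, Ces1d, Ces1e, Ces1f and Ces1g followed one another on chromosome 8. Sult2a8 had Sult2a7 as a neighbour on chromosome 7, and Aox3 had Aox1 on chromosome 1.

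Promoters were read for 4 of the 5 genes, Ces1f having no entry. They come from RefSeq, build GRCm38.p6, and are shown because Aox3, Ugt2b1 and Sult2a8 had the lowest levels in the same pool, while Ces1e is shown beside them as a gene with another order of levels. Each runs 5′ to 3′ from 250 bases before to 50 bases after an annotated start. Capitals mark matches, on either strand, to an E-box (CANNTG) or a nuclear receptor half-site (AGGTCA). Aox3 lies at chr1:58112886-58113185 on the plus strand, Ugt2b1 at chr5:86926454-86926753, and the promoters of Sult2a8 at chr7:14446538-14446837 (start 1) and chr7:14438502-14438801 (start 2). Ces1e lies at chr8:93229570-93229869 and, like Ugt2b1 and Sult2a8, on the minus strand.
Aox3: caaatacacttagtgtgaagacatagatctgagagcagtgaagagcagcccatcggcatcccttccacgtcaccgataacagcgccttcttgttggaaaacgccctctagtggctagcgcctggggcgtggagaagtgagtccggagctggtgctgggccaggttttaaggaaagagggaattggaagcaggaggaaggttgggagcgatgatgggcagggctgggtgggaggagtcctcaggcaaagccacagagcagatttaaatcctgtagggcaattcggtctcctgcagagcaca
Ugt2b1: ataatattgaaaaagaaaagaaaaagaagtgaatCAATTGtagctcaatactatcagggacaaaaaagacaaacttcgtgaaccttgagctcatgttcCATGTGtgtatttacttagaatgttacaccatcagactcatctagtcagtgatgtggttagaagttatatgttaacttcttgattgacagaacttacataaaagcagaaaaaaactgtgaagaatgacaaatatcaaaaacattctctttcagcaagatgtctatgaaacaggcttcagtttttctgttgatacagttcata
Sult2a8, start 1: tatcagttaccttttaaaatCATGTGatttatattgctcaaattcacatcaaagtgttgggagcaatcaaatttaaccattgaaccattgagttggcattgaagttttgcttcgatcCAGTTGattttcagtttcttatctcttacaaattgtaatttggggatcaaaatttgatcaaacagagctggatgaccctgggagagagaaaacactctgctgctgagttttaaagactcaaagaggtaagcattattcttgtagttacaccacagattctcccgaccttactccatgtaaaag
Sult2a8, start 2: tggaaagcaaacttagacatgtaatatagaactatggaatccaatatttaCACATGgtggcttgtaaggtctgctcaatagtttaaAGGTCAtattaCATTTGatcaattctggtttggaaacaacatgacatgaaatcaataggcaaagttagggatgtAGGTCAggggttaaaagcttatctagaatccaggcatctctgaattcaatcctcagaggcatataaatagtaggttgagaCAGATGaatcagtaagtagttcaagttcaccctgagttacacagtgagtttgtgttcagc
Ces1e: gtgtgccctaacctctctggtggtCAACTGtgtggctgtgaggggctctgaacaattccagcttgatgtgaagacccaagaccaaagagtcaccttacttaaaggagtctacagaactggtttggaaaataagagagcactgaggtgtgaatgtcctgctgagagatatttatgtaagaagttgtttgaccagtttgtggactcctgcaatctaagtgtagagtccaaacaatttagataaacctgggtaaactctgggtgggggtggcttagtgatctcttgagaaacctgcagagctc

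The Ugt2b1 promoter held 2 E-boxes, CAATTG and CATGTG. The Sult2a8 promoters held 2 at start 1 and 3 at start 2, Ces1e held 1 and Aox3 held 0. An E-box occurred in 72.3% of 32851 RefSeq promoters of this length. The half-site AGGTCA occurred 2 times at start 2 of Sult2a8, and in 16.3% of all promoters. A sterol regulatory element written as TCACNCCAC, the kind of sequence that SREBPs bind, was matched in 0 of the 5 promoters and in 1.24% of all of them. The STAT motif TTCNNNGAA was likewise matched in 0, and in 8.30% of all promoters. No match overlapped another in these windows. A match or its lack describes only these letters in these windows.

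As checks of the labels, the brighter Scap probe set read 7.94 and 7.75 on the Scap-/- arrays, against 9.24 and 8.89 on their wild type arrays. Of 16 SREBP target genes measured, 15 were called higher in TgSREBP-1a livers (1.36% of all probe sets were), 13 in TgSREBP-2 livers (0.338% of all), and 12 lower in Scap-/- livers (0.258% of all). A probe set was called where its adjusted p was under 0.05 and it differed at least 1.5-fold. Of 15 listed hepatocyte markers 2 were measured. Apoa1, the main protein of high-density lipoprotein, lay between 12.2 and 13.4 on all arrays, while C8a, a complement component, read 6.43 and 6.30 in TgSREBP-1a and between 8.51 and 9.39 elsewhere. All values are log2 expression values from RMA, a method that corrects background, equalises the arrays and summarises probes. Levels of different probe sets are not set against one another, because probes differ in brightness. Some arrays did not sit with their own duplicate: all 4 arrays of the Scap study, and the second TgSREBP-2 array, correlated best over all probe sets with an array of another group. Results resting on these arrays are given below with and without them where that matters.

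Duplicate arrays differed by up to 0.93 for these enzymes, a difference of Aox3 in Scap-/- that was larger than that of 99.8% of all probe sets there. The first array was the higher for 6 of 6 probe sets in Scap-/- and in both wild type pools, for 4 of 6 in TgSREBP-1a and for 2 of 6 in TgSREBP-2. Over all probe sets it was the higher in 45.4% to 53.5%. The labels do not tie the array number to a batch.

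**Figure D1:**
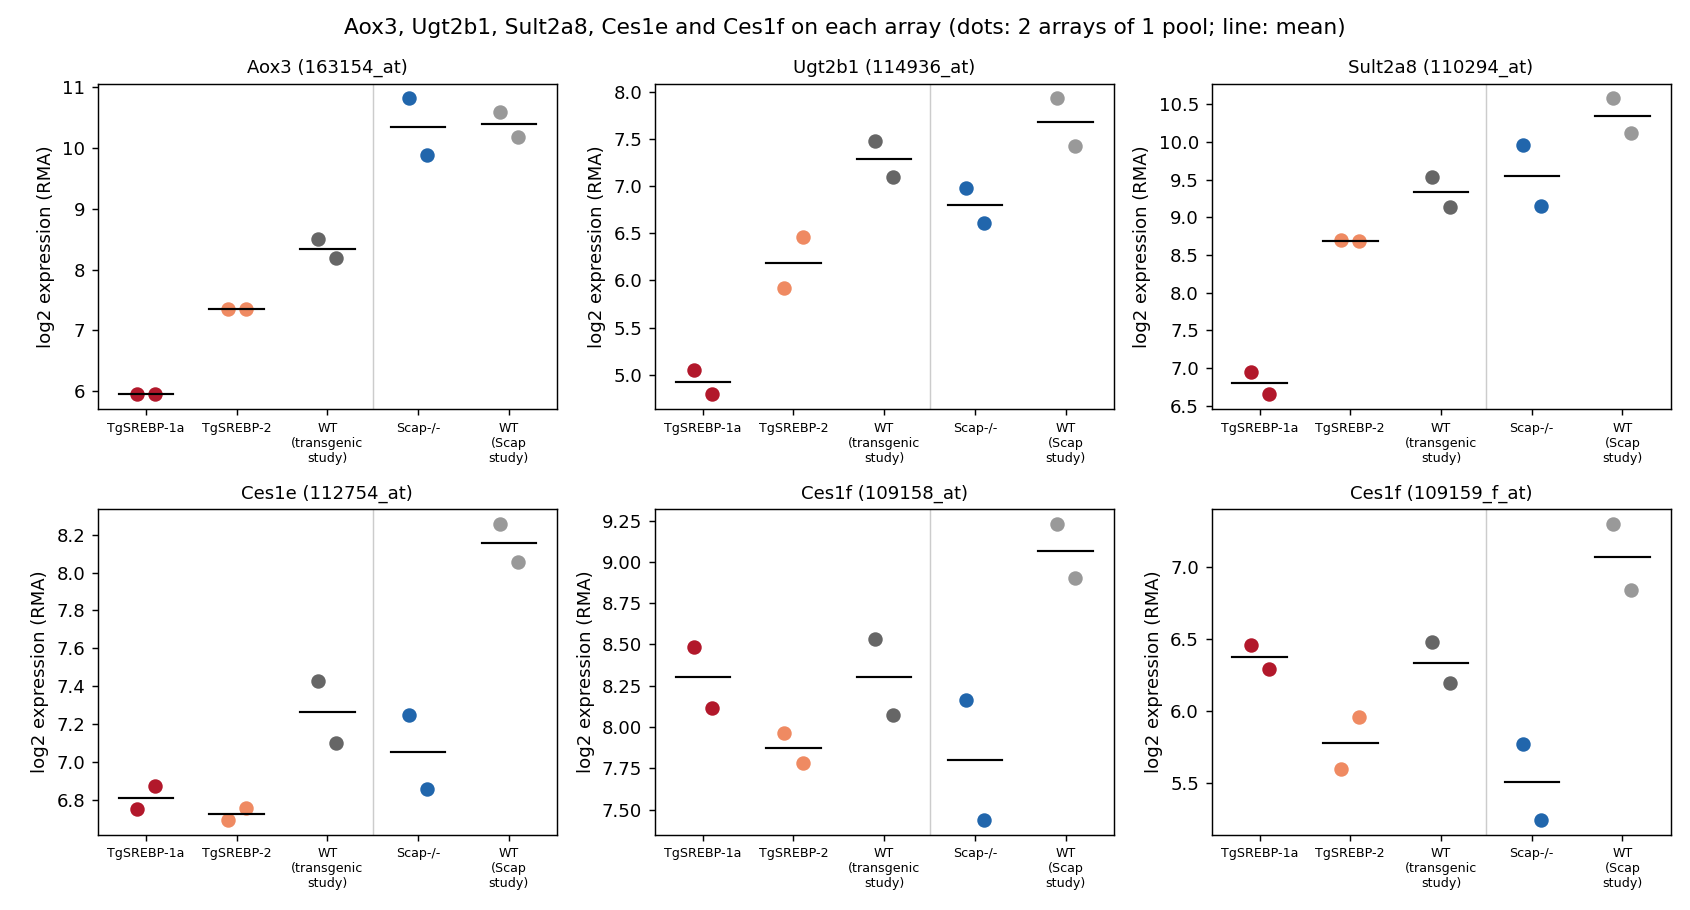
Log2 expression (vertical axes, RMA values, with their own range per panel) of the 6 probe sets in the 5 groups; dots are the 2 arrays of a pool and lines their mean. By their means all 6 probe sets lie highest in the Scap study's wild type pool; Aox3, Ugt2b1 and Sult2a8 lie lowest in TgSREBP-1a, Ces1e in TgSREBP-2 and both Ces1f probe sets in Scap-/-.

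Aox3, the aldehyde oxidase, had 5.95 and 5.96 in TgSREBP-1a livers and 7.35 and 7.36 in TgSREBP-2 livers, against 8.50 and 8.19 in their wild type livers. In the Scap study it had 10.81 and 9.88 in Scap-/- livers, against 10.59 and 10.18 in wild type livers. The 3 groups of the transgenic study thus stood in a stepped order with no overlap, all below both groups of the Scap study, whose arrays overlapped. By SD over the 10 arrays, Aox3 ranked 4 among the 12411 probe sets. It was 5.23-fold lower in TgSREBP-1a than in wild type, a log2 change of -2.39 ± 0.25 (limma SE, n = 2 arrays per group here and below).

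Ugt2b1, the glucuronosyltransferase, had 5.05 and 4.79 in TgSREBP-1a livers, 5.92 and 6.46 in TgSREBP-2 livers, against 7.48 and 7.10 in wild type. It had 6.98 and 6.61 in Scap-/-, against 7.93 and 7.42 in that study's wild type. Here the 2 wild type pools overlapped and each engineered group lay below its own wild type. The log2 change in TgSREBP-1a was -2.37 ± 0.22, or 5.16-fold lower.

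Sult2a8, the sulfotransferase, had 6.95 and 6.65 in TgSREBP-1a livers, 8.70 and 8.68 in TgSREBP-2 livers, against 9.53 and 9.13 in wild type. It had 9.96 and 9.14 in Scap-/-, against 10.58 and 10.12 in wild type. Scap-/- overlapped the transgenic study's wild type, and all other neighbours in the order were apart. Its log2 change of -2.53 ± 0.25 in TgSREBP-1a, 5.77-fold lower, was the largest of the 6 probe sets in that contrast.

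Ces1e, the egasyn esterase, had 6.75 and 6.87 in TgSREBP-1a livers, 6.69 and 6.75 in TgSREBP-2 livers, against 7.43 and 7.10 in wild type. It had 7.25 and 6.85 in Scap-/-, against 8.26 and 8.06 in wild type. Only the Scap study's wild type stood apart from its neighbour in the order, and the other 4 groups overlapped from one to the next.

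Ces1f, the lipid-hydrolysing esterase, had 8.49 and 8.12 in TgSREBP-1a livers, 7.97 and 7.78 in TgSREBP-2 livers, against 8.53 and 8.08 in wild type. It had 8.16 and 7.44 in Scap-/-, against 9.23 and 8.90 in wild type. The second probe set of Ces1f carries the suffix with which Affymetrix marks probes shared within a sequence family, so related carboxylesterases may add to it. That probe set had 6.46 and 6.29 in TgSREBP-1a livers, 5.60 and 5.96 in TgSREBP-2 livers, against 6.48 and 6.19 in wild type, and 5.77 and 5.25 in Scap-/-, against 7.30 and 6.84 in wild type. On both probe sets TgSREBP-1a overlapped its wild type, and Scap-/- and TgSREBP-2 were the lowest groups. The probe sets correlated with r = 0.942 over the 10 arrays, which come in duplicates of 5 pools, so no p is given.

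In TgSREBP-1a against wild type, Aox3, Ugt2b1 and Sult2a8 were called lower. They were 3 of the 6 probe sets, beside 0.814% of all probe sets called lower (2.18% either way). In 4 of 6 the arrays lay lower without overlap, as in 23.4% of all. The genes were chosen by this contrast, so nothing is read from the counts. Of the probe sets that were not called, Ces1e had a log2 change of -0.45 ± 0.15, and the Ces1f probe sets had -0.0029 ± 0.24 and 0.04 ± 0.20. The sign of these Ces1f values turned when 1 array was left out, with ranges from -0.23 to 0.22 and from -0.11 to 0.18.

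Cell type markers also differed between these pools. The summed linear level of the 2 measured macrophage markers of 9 was 64.2 to 69.3 in TgSREBP-1a, against 40.5 to 41.4 in wild type. Singly, their log2 changes were 0.91 for Cd163 and 0.07 for the other. The sum of 5 of 10 liver endothelium markers was 844 to 905, against 731 to 780. Pancreatic acinar transcripts (Cpb1, Cela3b and Ctrc, 3 of 12 markers) summed to 227 to 228 in TgSREBP-1a and 3217 to 4228 in TgSREBP-2, against 1970 to 2642 in wild type. Singly, Cpb1 had a log2 change of -4.67 in TgSREBP-1a, Cela3b of -3.84 and Ctrc of -0.22, and in TgSREBP-2 they ran from 0.63 to 1.51. Of the markers of hepatocyte zones, 5 of 10 pericentral ones summed to 1097 to 1340 in TgSREBP-1a and 1327 to 1422 in TgSREBP-2, against 1489 to 1789 in wild type. Their single log2 changes ran from -0.74 to -0.02 in TgSREBP-1a and from -0.60 to 0.08 in TgSREBP-2. The 2 measured periportal markers of 12 summed to 400 to 429 in TgSREBP-1a and 168 to 177 in TgSREBP-2, against 297 to 332 in wild type. Singly, they had log2 changes of -0.05 and 0.83 in TgSREBP-1a, and of -1.10 and -0.70 in TgSREBP-2. Tfrc, the 1 measured erythroid marker of 7, was at 28.1 to 32.6 in TgSREBP-1a and 70.5 to 88.2 in TgSREBP-2, against 27.2 to 28.5 in wild type. The hepatocyte markers Apoa1 and C8a summed to 7504 to 8132 in TgSREBP-1a and 5217 to 10754 in TgSREBP-2, against 10432 to 11326. The part of these differences in the results was not tested, and in such pooled tissue fewer cells of a type and less RNA per cell cannot be told apart.

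Set against TgSREBP-2, TgSREBP-1a was lower for Aox3 by a log2 change of -1.39 ± 0.25, for Ugt2b1 by -1.27 ± 0.22 and for Sult2a8 by -1.89 ± 0.25. These were the 3 of 6 probe sets called lower, beside 0.677% of all probe sets (1.86% either way), and their arrays lay lower without overlap, as in 20.7% of all. Ces1e differed by 0.09 ± 0.15, and the Ces1f probe sets by 0.43 ± 0.24 and 0.59 ± 0.20. In 2 of 6 probe sets, against 25.3% of all, TgSREBP-1a lay higher without overlap. The contrast uses the TgSREBP-1a arrays on which the choice of genes mainly rested and is a description. Without either TgSREBP-1a array, or without the second TgSREBP-2 array, 1 call was left, that of Sult2a8, and without the first TgSREBP-2 array 2 were left, those of Sult2a8 and Ugt2b1. The log2 change of Aox3 stayed between -1.40 and -1.39 in these 4 fits, and that of Ugt2b1 between -1.54 and -0.997.

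**Figure D2:**
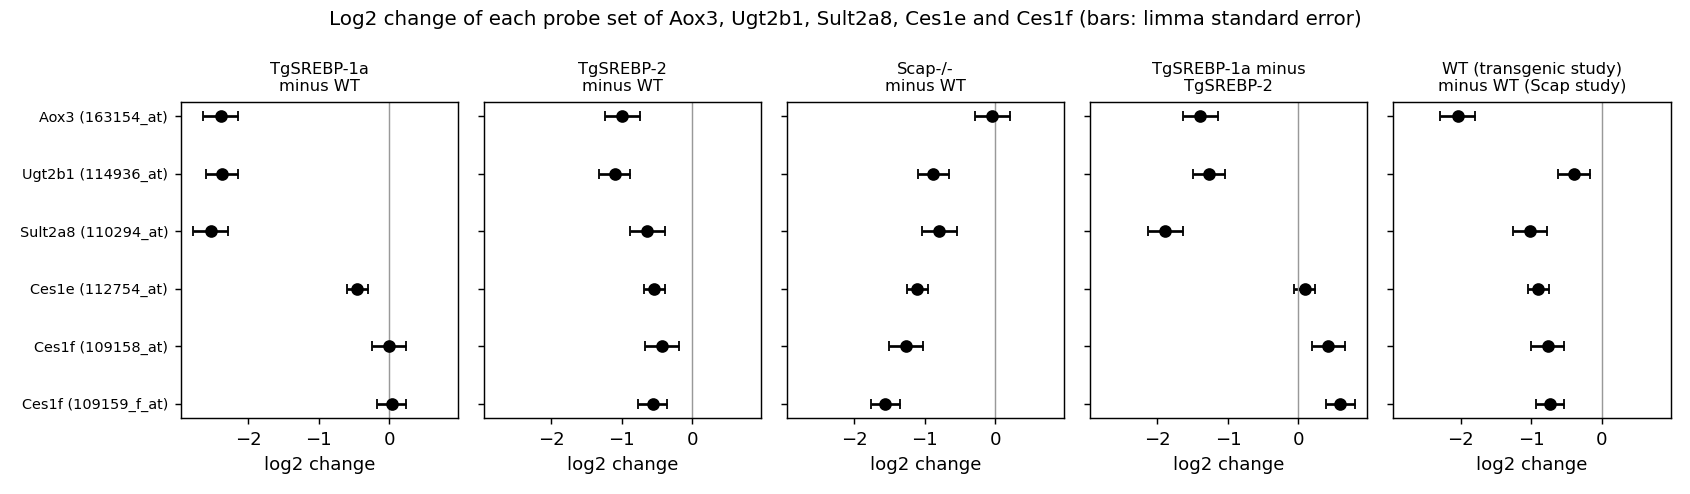
Log2 change (horizontal axis) of each of the 6 probe sets in the 5 comparisons, with limma standard errors as bars. All symbols are drawn alike, whether called or not. The 3 calls in TgSREBP-1a are Aox3, Ugt2b1 and Sult2a8, whereas the 2 calls in Scap-/- are Ces1e and the family probe set of Ces1f.

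TgSREBP-2 livers had lower mean levels of all 5 genes than wild type, but 0 of the 6 probe sets passed limma's test, beside 0.161% of all probe sets called lower (0.5% either way). At an unadjusted p under 0.05 there were 5 of the 6, and 983 of all 12411. The 6 probe sets did not overlap between the groups, each lying lower, as did 24.4% of all. Ugt2b1 had the largest log2 change, -1.10 ± 0.22 with an adjusted p of 0.087, and Aox3 had -0.99 ± 0.25, with a 95% interval of -1.54 to -0.44 and an adjusted p of 0.23. Sult2a8 had -0.64 ± 0.25, Ces1e -0.54 ± 0.15, and the Ces1f probe sets -0.43 ± 0.24 and -0.56 ± 0.20, with adjusted p-values between 0.31 and 0.70. Without the second TgSREBP-2 array, Ugt2b1 was called, at -1.37 and an adjusted p of 0.042, in a range of 0.03 to 0.74 over its alternatives. With the 4 arrays of the comparison alone, Aox3 was called with an adjusted p of 0.015, in a range of 0.015 to 0.98. With the array number as a replicate block in limma's model, Aox3 (adjusted p 0.038) and Ugt2b1 (adjusted p 0.03) were called. The wild type arrays are those of the TgSREBP-1a contrast.

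In Scap-/- livers the carboxylesterases had the largest changes of the 6 probe sets. Ces1e fell 2.15-fold, a log2 change of -1.11 ± 0.15 with an adjusted p of 0.012, and the family probe set of Ces1f fell 2.95-fold, by -1.56 ± 0.20 with an adjusted p of 0.011. The other Ces1f probe set had -1.27 ± 0.24, with an adjusted p of 0.086 that missed the call. Thus 2 of 6 probe sets were called lower, beside 0.258% of all (0.274% either way), and 5 of 6 lay lower without overlap, as did 14.4% of all. Ugt2b1 had -0.88 ± 0.22 and Sult2a8 -0.79 ± 0.25, with adjusted p-values of 0.32 and 0.49. With the array number as a replicate block in limma's model, Sult2a8 was called, with an adjusted p of 0.041. Aox3 had -0.04 ± 0.25, with a 95% interval of -0.59 to 0.51 and an adjusted p of 0.98.

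The calls in Scap-/- depended on single arrays. Without the second Scap-/- array the adjusted p was 0.15 for Ces1e and 0.13 for the family probe set of Ces1f. Without the first wild type array it was 0.11 and 0.081, and with only the 4 arrays of the Scap study it was 0.23 for both. Over all alternatives it ranged from 0.0022 to 0.23 for Ces1e and from 0.0017 to 0.23 for the family probe set, while the log2 changes stayed between -1.30 and -0.91 and between -1.82 and -1.30. Without the first Scap-/- array the other Ces1f probe set was called as well, with an adjusted p of 0.024 in a range of 0.00054 to 0.64. Beside these values, pancreatic acinar markers summed to 260 to 269 in Scap-/-, against 912 to 1114 in wild type. Singly, Cpb1 had a log2 change of -3.21, Cela3b of -1.89 and Ctrc of -0.13. The hepatocyte markers summed to 9025 to 10335, against 10701 to 11402. The part of these markers in the result was not tested.

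The wild type pools also differed from each other, with no transgene or deletion in either. Aox3 was 4.11-fold lower in the transgenic study's wild type than in that of the Scap study, a log2 change of -2.04 ± 0.25 with an adjusted p of 0.0071. By this change it ranked 3 from the lowest of the 12411 probe sets. Ces1e was 1.86-fold lower, at -0.89 ± 0.15 with an adjusted p of 0.03. These were 2 of 6 probe sets, beside 0.355% of all called lower (0.508% either way), and 5 of 6 lay lower without overlap, as did 17.4% of all. Sult2a8 had -1.01 ± 0.25, Ugt2b1 -0.39 ± 0.22, and the Ces1f probe sets -0.76 ± 0.24 and -0.73 ± 0.20, with adjusted p-values from 0.16 to 0.64. Pancreatic acinar markers summed to 1970 to 2642 in the transgenic study's wild type, against 912 to 1114 in that of the Scap study. Singly, their log2 changes ran from 0.15 to 1.61. The sum of 5 of 10 pericentral hepatocyte markers was 1489 to 1789, against 2183 to 2679. Singly, these 5 markers went both ways, with log2 changes from -0.82 (Gulo) to 0.59, and 2 were positive. Of the 16 SREBP targets 8 were called lower. The part of these differences in the result was not tested. Diet, age, the injections and the study itself differed between the pools and cannot be told apart. The transgenic study's wild type is also the base of the contrast that chose Aox3.

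Without the second wild type array of the transgenic study the adjusted p of Aox3 was 0.097, the highest in its range over the alternatives, which began at 0.00035. Its log2 change was then -1.89, within a range of -2.25 to -1.83. The adjusted p of Ces1e was 0.34 without the same array, 0.077 without the first array of that pool, 0.18 without the first wild type array of the Scap study and 0.13 with the 4 arrays alone, in a range of 0.0071 to 0.34, while its log2 change stayed between -1.06 and -0.73.

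Other enzymes of the same families were taken from lists. Of 6 other oxidases and molybdenum cofactor genes, among them Aox4, 0 were called in any of the 5 comparisons by limma. At an unadjusted p under 0.05 there were at most 3, in Scap-/-, and 0 in TgSREBP-1a against wild type, where the log2 changes in TgSREBP-1a ran from -0.10 to 0.44. Aox4, another aldehyde oxidase, had 6.28 and 6.21 in TgSREBP-1a, against 6.10 and 6.26 in wild type. Aox4 also read 6.28 and 6.34 in Scap-/-, against 6.24 and 6.30 in wild type. The proteins of these oxidases share the molybdenum cofactor, whose synthesis genes Mocs1, Mocs2 and Mocs3 are in the count.

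Measured too were 4 other genes listed with the glucuronosyltransferases: Ugt2a3, Ugt2b36, Ugt3a1 and Ugt3a2. The Ugt3a genes are of another group and are not taken here as glucuronosyltransferases. Of the 4, 2 were called lower in TgSREBP-1a, beside 0.814% of all probe sets. Ugt2a3 changed by -0.85 ± 0.17 and Ugt3a2, on a family probe set, by -0.88 ± 0.20. In TgSREBP-2 only Ugt3a1 was called, at -0.67 ± 0.10 with an adjusted p of 0.014, beside 0.161% of all called lower. In Scap-/- 0 of 4 were called, with 2 at an unadjusted p under 0.05. The medians of the 4 were -0.72 in TgSREBP-1a, -0.52 in TgSREBP-2 and -0.31 in Scap-/-, beside -0.02, -0.02 and 0.02 over all probe sets. Ugt2b36, of the same subfamily as Ugt2b1, was not called on either of its probe sets, which had -0.59 and -0.70 in TgSREBP-1a livers, with -0.12 and -0.02 for TgSREBP-2.

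Among 3 other sulfotransferase and sulfate donor genes, Sult4a1, a sulfotransferase best known from brain, was called higher in TgSREBP-1a, opposite to Sult2a8. It had 9.21 and 8.77 in TgSREBP-1a livers, 7.78 and 7.34 in TgSREBP-2 livers, against 7.54 and 7.47 in wild type, a log2 change of 1.48 ± 0.16 with an adjusted p of 0.00061 in TgSREBP-1a. Sult1c2 and the sulfate donor transporter Slc35b3 were not called.

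Of 5 other carboxylesterases and lipid hydrolases, 0 were called by limma in TgSREBP-1a, TgSREBP-2 or Scap-/-, with 2, 1 and 1 at an unadjusted p under 0.05. Ces1g, the neighbour of Ces1f, had -0.26 ± 0.20 in Scap-/- with an adjusted p of 0.74, beside the values of -1.11 for Ces1e and -1.27 for Ces1f. The difference between Ces1g and Ces1e or Ces1f was not tested. Ces2a, an esterase of another subgroup, had -0.83 ± 0.21 in Scap-/- with an adjusted p of 0.29. Between the wild type pools Ces2a was called, 2.97-fold lower in the transgenic study with 8.67 and 8.31, against 10.25 and 9.87 in the Scap study (-1.57 ± 0.21, adjusted p 0.0093).

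**Figure D3:**
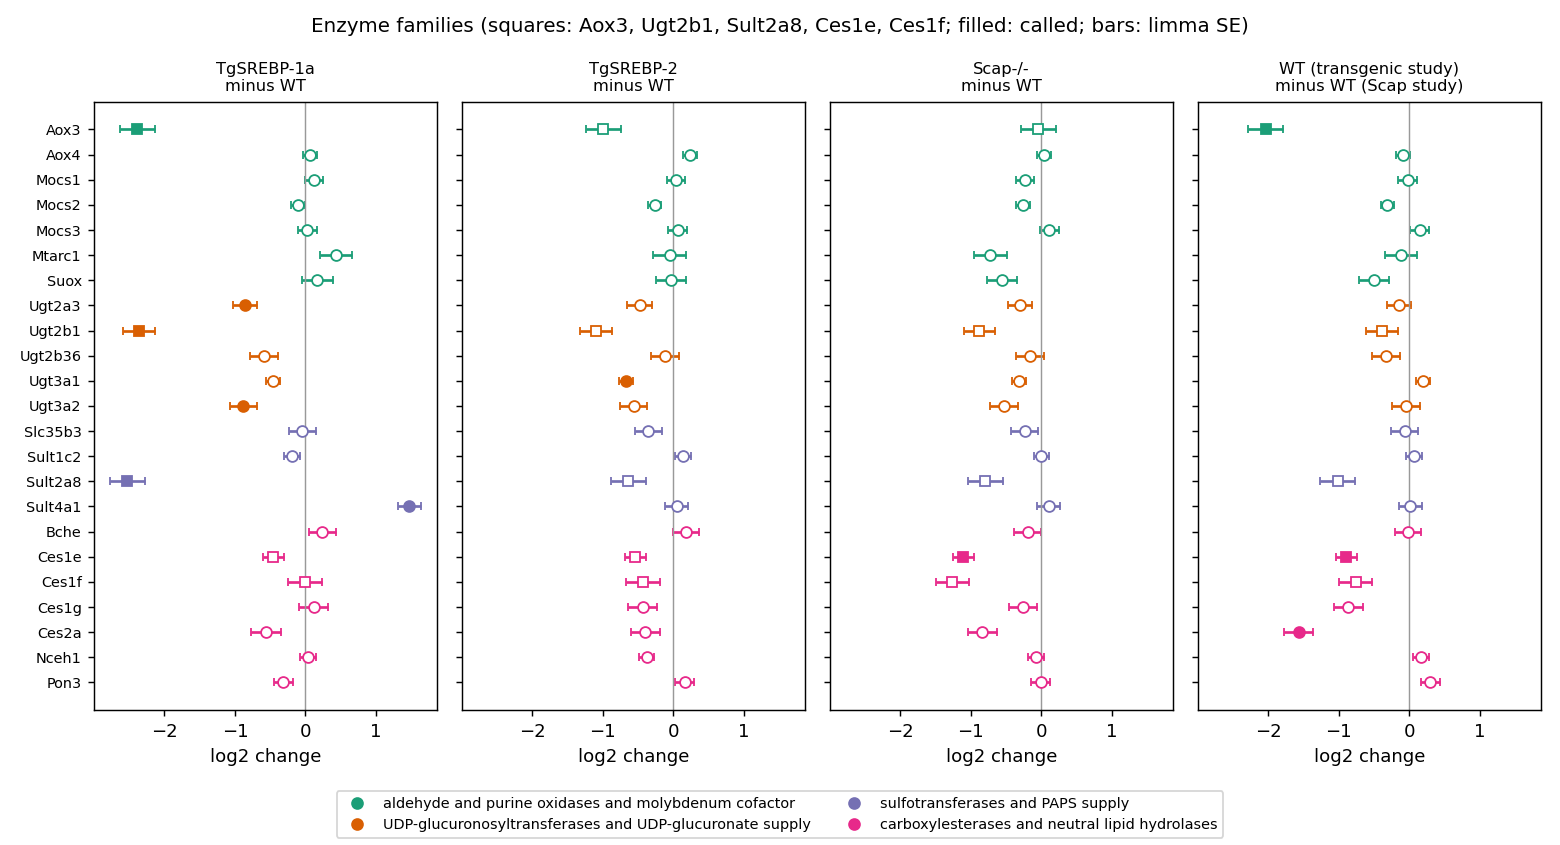
Log2 change (horizontal axes) with limma standard errors for the measured genes of the 4 enzyme families (1 probe set per gene, the brightest), in 4 comparisons; squares are Aox3, Ugt2b1, Sult2a8, Ces1e and Ces1f, and filled symbols are called. Sult4a1 is called higher in TgSREBP-1a, whereas Ugt2a3 and Ugt3a2 are called lower there and Ces2a is called lower between the wild type pools.

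Over the 10 arrays, the profile of Sult2a8 correlated with those of Ugt2b1 (r = 0.961) and Aox3 (r = 0.919), and Aox3 with Ugt2b1 at r = 0.84. Ces1e correlated with Ces1f at r = 0.842 and with Aox3 at r = 0.695, while Aox3 and Ces1f had r = 0.284. These are descriptions of 5 pools in duplicate, and the low TgSREBP-1a values that chose 3 of the genes enter them.

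Profiles were compared with those of 796 probe sets with 1 gene symbol and an SD of at least 0.3 over the arrays. Most like Aox3 were Osgin1 (r = 0.993), a stress-induced growth inhibitor, Lims2 (r = 0.981), an adhesion adaptor, and Gulo, an enzyme of vitamin C synthesis. For Ugt2b1 they were Tppp (r = 0.974), a tubulin-binding protein, Shld1, a DNA repair factor, and Ugt2a3, another glucuronosyltransferase. For Sult2a8 they were Hao1 (r = 0.995), a peroxisomal hydroxyacid oxidase, AI182371 (r = 0.987), and C8b, a complement component. C8b had a log2 change of -2.22 ± 0.16 in TgSREBP-1a and Hao1 one of -1.83 ± 0.25, beside -2.53 for Sult2a8. For Ces1e the nearest were Trim12c (r = 0.938), Abcb11, the bile salt export pump, and Ttc39c (r = 0.931). Of these, Ttc39c was called lower in Scap-/-, at -1.14 ± 0.18 with an adjusted p of 0.031.

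For the brighter Ces1f probe set they were Mlxipl (r = 0.969), the carbohydrate-responsive transcription factor ChREBP, Pyurf and U2surp (r = 0.913). Mlxipl had log2 changes of 0.07 ± 0.19 in TgSREBP-1a, -0.27 ± 0.19 in TgSREBP-2 and -0.75 ± 0.19 in Scap-/-, beside -0.0029, -0.43 and -1.27 for Ces1f, and was not called in any of these. Likeness of profiles over 5 pools was not tested.

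**Figure D4:**
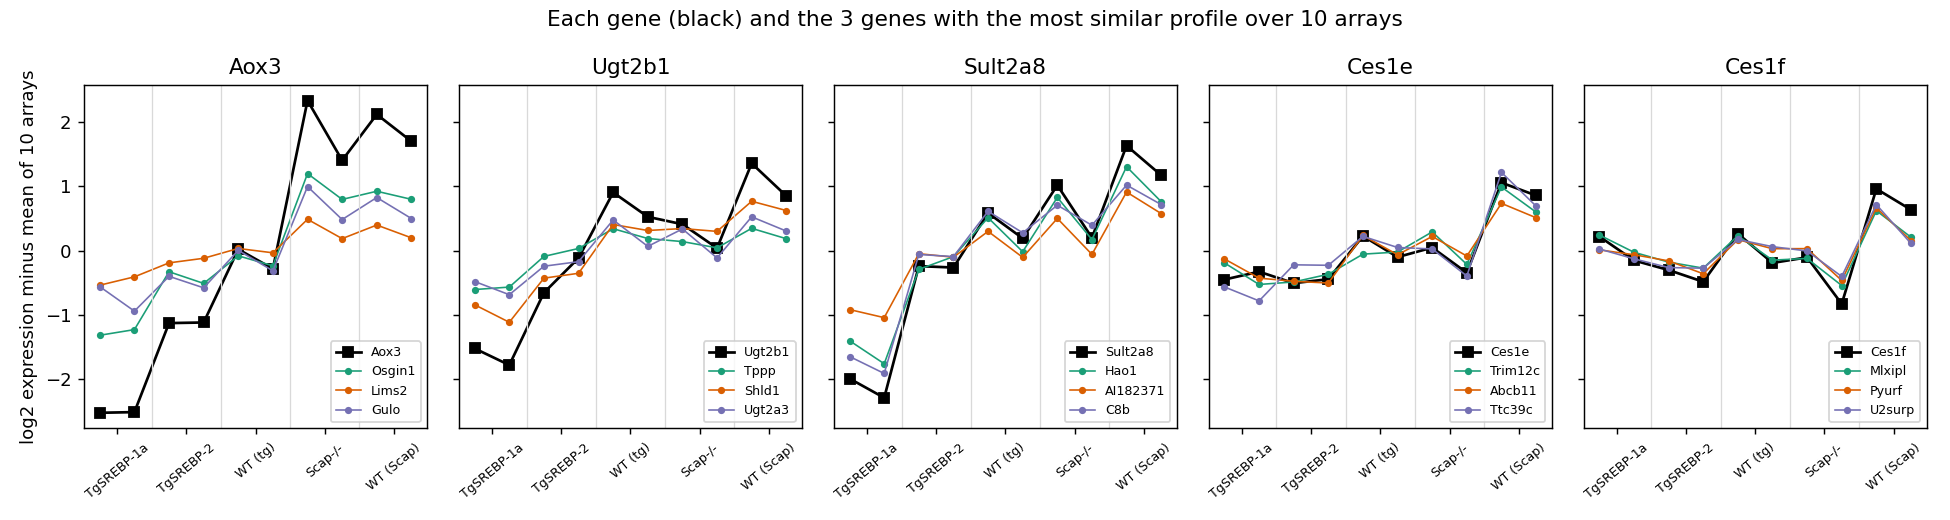
Log2 values, each minus the gene's own mean of the 10 arrays (vertical axis), by array (horizontal axis, ordered by group). Aox3, Ugt2b1, Sult2a8, Ces1e and the brighter Ces1f probe set are black, each with its 3 most similar genes. Osgin1 tracks Aox3 with r = 0.993 and Hao1 tracks Sult2a8 with r = 0.995.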

How the data were processed

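Liver RNA pools of 5 groups were measured on 2 Affymetrix MG_U74Bv2 arrays each, 10 in all. The deposited values are log2 expression values made with RMA, per the submitters' processing notes, which give no version; per the labels' design text, arrays were processed with MICROARRAY SUITE 5.0. RMA equalises the arrays, whose medians lay between 5.625 and 5.66, so a change shared by most genes is not seen. Of 12477 probe sets, 66 controls were left out and 12411 tested; 10581 had 1 gene symbol in the platform annotation, 178 several and 1652 none.

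Group means were estimated in a single linear model over the 10 arrays (lmFit, then eBayes, of limma 3.58.1 under R 4.3.3), checked on simulated data. Adjusted p-values are two-sided Benjamini-Hochberg values over all 12411 probe sets. The median standard error of a log2 change was 0.115, and the number of arrays limits the precision. Groups came from the genotype labels.

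The genes, the family and marker lists and the motifs were chosen with earlier results of these data known. Per list, up to 4 genes called in any comparison were named, by the brightest probe set, with the nearest family members. Likeness names the 3 genes with the highest Pearson r. Array numbers were not used as pairs. Alternatives were quantile normalization, median centring, limma-trend, array weights, a filter on dim probe sets, gene means, a replicate block, a 2-fold threshold, the 4 arrays of a comparison alone and leaving out each array.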

Additional observations from a re-analysis of the deposited data

How the results depend on the processing

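The count of 3 probe sets called lower in TgSREBP-1a against wild type was 3 under every alternative run, and leaving out each of the 4 arrays compared also gave 3 to 3. When the array number entered the model as a replicate block, the counts were 2 in TgSREBP-2 against wild type (0 without it), 4 in Scap-/- against wild type (2 without it) and 4 between the wild type pools (2 without it). Calls over all 12411 probe sets rose as well, from 62 to 101 in TgSREBP-2 and from 34 to 91 in Scap-/-. Of the 6 probe sets, the block's calls in TgSREBP-2 were Aox3 (adjusted p 0.038) and Ugt2b1 (0.03). In Scap-/- the block added Sult2a8 (0.041) and the brighter Ces1f probe set (0.00054). Between the wild type pools it added the same 2 probe sets. Differences between first and second arrays correlated above 0.1 in 7 of 10 pairs of groups. Among Scap-/-, TgSREBP-1a and both wild type pools r was 0.34 to 0.60, so these groups shared a difference between first and second arrays. Pairs with TgSREBP-2 had r of -0.17 to 0.11. The labels do not say what the array number stands for, so the block is given as an alternative only. With only the 4 arrays of a comparison in the fit, 65 of all 12411 probe sets were called in TgSREBP-2 and 5 in Scap-/-. The counts among the 6 were then 1 in TgSREBP-2, 0 in Scap-/- and 1 between the wild type pools, where the 2-fold threshold also gave 1. Leaving out 1 of the compared arrays gave 0 to 1 in TgSREBP-2, 0 to 3 in Scap-/-, 1 to 2 for TgSREBP-1a against TgSREBP-2 and 0 to 2 between the wild type pools. In such fits the lone array is assumed to vary like the other groups. Of 300 values of single probe sets, 266 kept their direction and side of the threshold, 18 lost the call, 9 gained it and 7 turned sign. The sign turned for values near 0: Aox3 in Scap-/- had 0.10 after quantile normalization and -0.51 to 0.43 with 1 array left out, and the Ces1f probe sets in TgSREBP-1a had -0.23 to 0.22 and -0.11 to 0.18. The cause of these shifts was not tested.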

Other observations

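Other genes of foreign compound metabolism moved in the livers where Aox3, Ugt2b1 and Sult2a8 were lowest. In TgSREBP-1a against wild type, Cyp4f14, a cytochrome P450, was lower (-1.71 ± 0.17). Of 63 listed P450s 8 were measured, and it alone passed limma's call, beside 0.814% of all probe sets called lower. Dpys, an enzyme of pyrimidine breakdown, and Glyat, which attaches glycine to acyl groups, were also lower, at -1.13 ± 0.17 and -1.04 ± 0.20. They were the 2 called of 16 measured genes, from a list of 41, beside the same 0.814%. Of 7 glutathione transferases, 3 were called higher and 1 lower, beside 1.36% and 0.814% of all probe sets, with Gstt3 at 2.01 ± 0.12 and Gstp3 at -1.40 ± 0.17. Slco1a4, a transporter of organic anions into cells, was higher (1.38 ± 0.15). It was the only one called of 11 measured transporters, from 25 listed, beside 1.36% of all probe sets called higher. Of 4 bile acid synthesis genes 0 were called by limma, with 1 at an unadjusted p under 0.05.

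Of 6 measured genes listed as male-predominant in mouse liver, 4 were called lower in TgSREBP-1a, where 0.814% of all probe sets were. They were Egfr, Moxd1, Susd4 and C6, with log2 changes of -2.48 ± 0.22, -1.32 ± 0.11, -0.86 ± 0.15 and -0.73 ± 0.10. In TgSREBP-2 Moxd1 alone of the 6 was called, at -1.32 ± 0.11, and in Scap-/- 0 of 6 were, with 3 at an unadjusted p under 0.05. Of 11 measured female-predominant genes 1, Acot3, was called higher in TgSREBP-1a (0.61 ± 0.12), beside 1.36% of all probe sets. In TgSREBP-2 and in Scap-/- 0 of the 11 were called, with 1 and 2 at an unadjusted p under 0.05. The lists were chosen with results of these data known and are given as values only.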
